A study of Mus musculus with 12 samples.

Results

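Calcium cycling across the endoplasmic reticulum was described for 10 genes in subcutaneous white adipose tissue (scWAT). They were the SERCA pumps Atp2a1, Atp2a2 and Atp2a3, the ryanodine receptors Ryr1, Ryr2 and Ryr3, the IP3 receptors Itpr1, Itpr2 and Itpr3, and the kinase gene Camk2d. The genes were chosen by name, and all 10 were found among the 55401 genes counted. Of these, 8 had enough reads for the fit, while Ryr2 and Ryr3 were counted but entered the test only when no filter on low counts was set. RNA-seq was performed in 12 libraries from female mice, 3 in each of 4 groups. Wild-type mice (Jmjd1a +/+) and mice homozygous for the HY allele (Jmjd1a HY/HY, called HY/HY mice from here on) spent 1 week at either 30°C or 8°C. All were caged singly, had spent 1 week at 30°C beforehand, and were 16 weeks old at the start. The HY allele was made by CRISPR-Cas9 in C57BL/6J eggs and encodes JMJD1A with the H1122Y substitution, which removes its demethylase activity in every cell of the animal.

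The endoplasmic reticulum is the main calcium store of a cell. SERCA pumps spend ATP to move calcium from the cytosol into the store, and ryanodine and IP3 receptors are channels that let it out again. When uptake and release run together, ATP is hydrolysed with no net transport and heat is made, and such a cycle through SERCA2 and RYR2 has been described in beige adipocytes as a source of heat that does not need UCP1. IP3 receptors open on binding IP3, which phospholipase C forms after hormones or noradrenaline act at the cell surface, and they pass calcium to mitochondria at sites of contact. CaMKII, of which Camk2d encodes the delta chain, is a kinase switched on by calcium signals.

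Sense-strand totals were 13592629 to 26352081 read pairs per library, with all libraries at 8°C below all libraries at 30°C. All 8 white adipocyte markers were detected, with a summed level of 21547 to 49407 CPM, the read count scaled to the library size after TMM normalisation. The mean Ucp1 level in wild-type mice was 2.02 CPM at 30°C and 5484 CPM at 8°C, and in HY/HY mice 1.23 and 575 CPM. The HY allele is a substitution, so the level of Kdm3a, the gene of JMJD1A, cannot check the labels. It was 35.7 to 61.7 CPM and was not called between genotypes. One library stood apart: wild-type replicate 2 at 30°C held 1714 CPM of 14 skeletal muscle genes in sum, against 19.8 to 57.2 CPM in the other 11 libraries, so results that rest on it are given with and without it.

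A gene was called different at an adjusted p below 0.05 and a fold change above 1.5 or below 0.67, and for the interaction, in which the wild-type cold response is subtracted from the HY/HY one, at an adjusted p below 0.05 alone. By cold, Atp2a2 and Itpr2 rose and Itpr3, Atp2a1 and Ryr1 fell in wild-type mice, which made 5 of the 8 tested. The falls of Atp2a1 and Ryr1 were carried by the library with muscle transcripts. Of all 16540 genes tested, 10.3% were called higher and 6.93% lower by cold in wild-type mice. In HY/HY mice no member was called by cold in edgeR or in DESeq2, 1 had an unadjusted p below 0.05, and the shares of all genes were 0.181% higher and 0.0665% lower. At 30°C no member was called between the genotypes in edgeR or DESeq2, where edgeR called 0.562% of all genes higher and 0.441% lower in HY/HY mice. DESeq2 gave no adjusted p for Atp2a1 in any comparison, so for this gene the lack of a DESeq2 call is a missing value. In edgeR the unadjusted p was below 0.05 for Atp2a1, Ryr1, Itpr3 and Camk2d. The share of all genes at that unadjusted limit is not given, so the members cannot be set against it. At 8°C Itpr2 was called lower in HY/HY mice, against 4.42% of all genes lower and 1.51% higher, and Itpr2 was also the 1 member called for the interaction, against 2.07% lower and 0.169% higher. In tissue RNA, fewer cells of a type and less RNA per cell cannot be told apart.

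**Figure D1:**
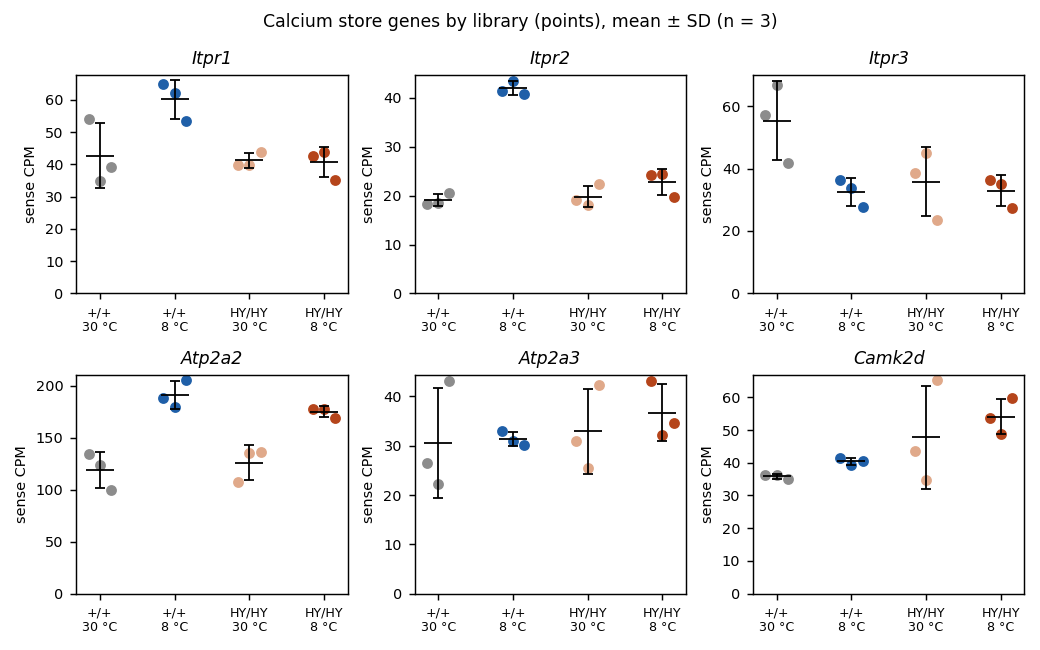
Levels of 6 members in sense CPM in the 4 groups, 3 libraries each. Points are libraries, and bars show mean ± SD. The 3 wild-type libraries at 8°C stand at 40.9 to 43.5 CPM for Itpr2, while the other 9 libraries lie between 18.1 and 24.5 CPM.

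Itpr2 (ENSMUSG00000030287.15, chr6:146108299-146502258 on GRCm38) encodes the IP3 receptor with the highest affinity for IP3. Its level in wild-type mice was 18.2, 18.5 and 20.5 CPM at 30°C, and 41.5, 43.5 and 40.9 CPM at 8°C. In HY/HY mice it was 19.1, 18.1 and 22.3 CPM at 30°C, and 24.2, 24.5 and 19.8 CPM at 8°C. The wild-type libraries at 8°C lay above all others, and the remaining 3 groups overlapped. Cold raised Itpr2 2.20-fold in wild-type mice (log2 fold change 1.14, SE 0.12, adjusted p = 7.0e-05). In HY/HY mice the log2 fold change was 0.21 (95% interval -0.05 to 0.46, adjusted p = 0.438). At 8°C HY/HY mice had 0.545 times the wild-type level (log2 -0.88, SE 0.12, adjusted p = 0.00198), whereas at 30°C the difference was 0.06 (95% interval -0.20 to 0.31). The cold responses themselves differed by -0.93 on the log2 scale (SE 0.16, adjusted p = 0.0174). Among the fits with 1 library left out, the difference ranged from -0.99 to -0.84. The call was lost without wild-type replicate 1 or 2 at 30°C, wild-type replicate 2 or 3 at 8°C, or HY/HY replicate 1 or 3 at 8°C, with adjusted p between 0.0501 and 0.0614. Replicate 2 at 30°C is the library with muscle transcripts, and without it the difference was -0.91 (adjusted p = 0.0521).

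Itpr3 (ENSMUSG00000042644.9, chr17:27057002-27122223), the type 3 receptor, is prominent in secretory and other epithelia. It stood at 57.1, 66.9 and 41.9 CPM in the wild type at 30°C and at 36.2, 33.8 and 27.6 CPM at 8°C, with no overlap. In HY/HY mice it was 38.7, 45.1 and 23.6 CPM at 30°C and 36.3, 35.2 and 27.2 CPM at 8°C, with overlap. In wild-type mice Itpr3 fell by 0.77 on the log2 scale with cold (SE 0.23, adjusted p = 0.0327). Without the library with muscle transcripts the value was -0.61 (adjusted p = 0.123). The call was also lost without wild-type replicate 1 at 30°C (-0.74, adjusted p = 0.0803) and without each of the wild-type libraries at 8°C (adjusted p = 0.0605 to 0.124). Cold in HY/HY mice gave -0.12 (95% interval -0.63 to 0.38). The difference between the genotypes was -0.63 at 30°C (adjusted p = 0.182) and 0.02 at 8°C (95% interval -0.49 to 0.53), and the cold responses differed by 0.64 (95% interval -0.07 to 1.36, adjusted p = 0.395). The 12 mammary and other epithelial markers were summed at 6012 to 7817 CPM in the wild type at 30°C, 3441 to 3855 CPM in the wild type at 8°C, and 2461 to 4422 and 3439 to 3966 CPM in HY/HY mice at the higher and lower temperature. The sum of 7817 CPM belonged to the library with muscle transcripts. Of these 12 genes, 4 fell with cold in wild-type mice and 0 did so without that library, where their median log2 fold change was -0.75. None of the 12 was at 0 throughout a group, and their part in the Itpr3 result was not tested.

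The sequences before the annotated starts of Itpr2 and Itpr3 are shown because these genes of one receptor family were called in opposite directions by cold in wild-type mice. They are the 250 bases upstream of the start in RefSeq (GRCm38.p6), with the letters CCAAT and GGGCGG, read on both strands, in capitals. The Itpr2 stretch is chr6:146502224-146502473 on the minus strand, and its last 35 bases fall inside the outermost extent of the gene record. The Itpr3 stretch is chr17:27057054-27057303 on the plus strand, and lies wholly inside the gene record, which begins 302 bases before this start.
Itpr2: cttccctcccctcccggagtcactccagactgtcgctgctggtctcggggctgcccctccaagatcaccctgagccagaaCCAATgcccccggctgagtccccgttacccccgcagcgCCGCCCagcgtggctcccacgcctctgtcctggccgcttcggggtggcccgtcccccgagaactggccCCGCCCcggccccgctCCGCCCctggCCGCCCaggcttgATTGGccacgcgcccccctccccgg
Itpr3: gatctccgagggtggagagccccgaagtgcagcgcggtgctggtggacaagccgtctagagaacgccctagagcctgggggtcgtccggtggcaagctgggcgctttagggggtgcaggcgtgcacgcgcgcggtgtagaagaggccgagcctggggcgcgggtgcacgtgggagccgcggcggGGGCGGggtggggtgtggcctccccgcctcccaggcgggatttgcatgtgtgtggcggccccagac
The Itpr2 stretch held 2 matches to CCAAT and 4 to GGGCGG, and the Itpr3 stretch 0 and 1, with no overlap between matches. Among all 32851 RefSeq stretches of this kind, 33.8% held CCAAT and 32.7% held GGGCGG. GC content was 74.4% for Itpr2 and 72.0% for Itpr3, against a median of 52.4%. The E-box CANNTG, where N is any base, went the other way, with 0 matches in the Itpr2 stretch and 2 in the Itpr3 stretch. It was in 66.2% of all stretches. TGACG, the core of a cAMP response element, was in 17.8% of all stretches and AAGGTCA, a nuclear receptor motif, in 4.08%. Neither TGACG nor AAGGTCA was found in either stretch. A match is a run of letters and not a known binding site.

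Itpr1 (ENSMUSG00000030102.11, chr6:108213083-108551116), the receptor abundant in brain and smooth muscle, was at 54.1, 34.7 and 39.2 CPM in the wild type at 30°C and at 64.8, 62.2 and 53.3 CPM at 8°C. Itpr1 in HY/HY mice was at 39.9, 39.8 and 43.8 CPM at 30°C and at 42.7, 43.7 and 35.2 CPM at 8°C. The highest wild-type value at 30°C lay within the range at 8°C, while at 8°C every HY/HY library lay below every wild-type library. With cold, the log2 fold change of Itpr1 was 0.49 in wild-type mice (SE 0.15, adjusted p = 0.0374), a 1.41-fold difference below the fold limit, and without the library with muscle transcripts 0.37 (adjusted p = 0.137). Without wild-type replicate 1 at 30°C it was 0.70 (adjusted p = 0.00618), past both limits. For HY/HY mice the same value was -0.02 (95% interval -0.36 to 0.32). At 8°C the value for HY/HY against wild-type mice was -0.57 (SE 0.16, adjusted p = 0.0487), a ratio of 0.675 that lay just outside the limit of 0.67. It passed the limit in DESeq2 (-0.58, adjusted p = 0.0127). The cold responses of Itpr1 differed by -0.52 (adjusted p = 0.295). Of 6 endothelial markers, 4 rose with cold in wild-type mice (Pecam1, Cdh5, Kdr and Emcn), and 1 did without the library with muscle transcripts (Kdr). None of the 8 smooth muscle markers was called in either case. Endothelial sums were 481 to 759 CPM at 30°C and 895 to 1210 CPM at 8°C in wild-type mice, and 710 to 840 and 687 to 901 CPM in HY/HY mice. Smooth muscle sums were 509 to 636 and 654 to 887 CPM in wild-type mice, and 774 to 951 and 729 to 760 CPM in HY/HY mice. No endothelial or smooth muscle marker was at 0 throughout a group, and their part in the Itpr1 values was not tested.

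**Figure D2:**
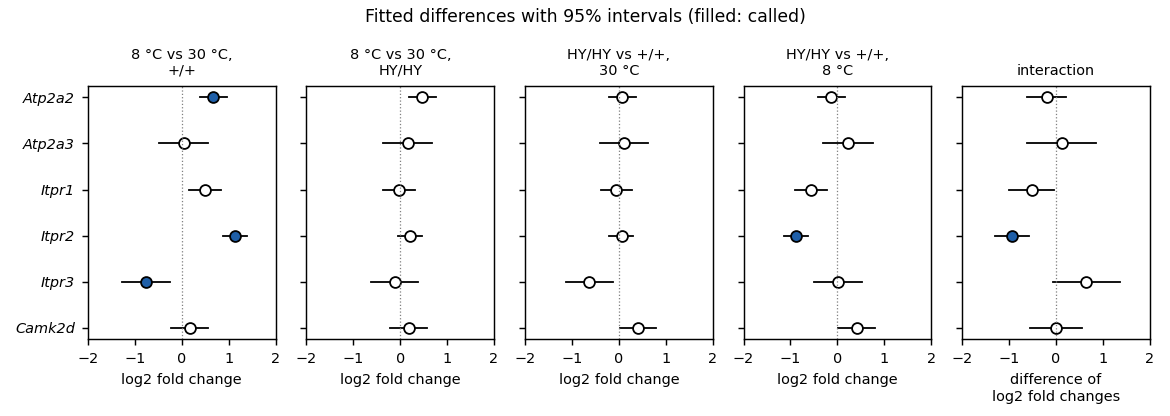
Fitted log2 fold changes (points) with 95% intervals (lines) of 6 members in the 4 comparisons and the interaction. Filled points were called. Itpr2 is filled in 3 of the 5 panels, with values of 1.14, -0.88 and -0.93.

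Levels of different genes were compared per kilobase of transcript, with lengths from an older annotation (GENCODE M1), so these ratios are approximate. The 3 IP3 receptors together came to 12.1 ± 1.55 CPM per kb (SD, n = 3) in the wild type at 30°C and 13.3 ± 1.17 at 8°C, and to 9.86 ± 0.826 and 9.73 ± 1.24 in HY/HY mice. In wild-type mice at 30°C Itpr3 made up 50.5% ± 7.71 of this sum, Itpr1 35.8% ± 6.81 and Itpr2 13.7% ± 2.79 (SD, n = 3). At 8°C the shares were 27.1% ± 1.42, 45.8% ± 0.659 and 27.1% ± 2.08, and in each of the 3 receptors the shares at 8°C did not overlap those at 30°C. At 30°C the library with muscle transcripts held 59.3% Itpr3, 28.1% Itpr1 and 12.6% Itpr2. The other wild-type libraries at 30°C held 47.4% and 44.8% Itpr3, 41.0% and 38.3% Itpr1, and 11.6% and 16.9% Itpr2. These too did not overlap the shares at 8°C, but Itpr3 and Itpr1 lay closer together. In HY/HY mice the shares of Itpr3, Itpr1 and Itpr2 were 39.9% ± 9.44, 42.7% ± 5.99 and 17.4% ± 3.45 at 30°C and 37.5% ± 1.08, 42.4% ± 0.789 and 20.1% ± 0.296 at 8°C, and they overlapped. At 8°C each share differed between the genotypes without overlap. The 3 shares are parts of the same sum, so they are not separate results, and no background over all genes is given for them. The share of Itpr3 was higher in HY/HY mice, while its level was 32.9 CPM against 32.5 CPM in wild-type mice. With 3 libraries against 3, the exact permutation test of each non-overlapping share gave p = 0.1, the smallest it can give. In level per kilobase, the order in the wild type at 30°C was Itpr3, Itpr1 and Itpr2, the first pair overlapping between libraries. At 8°C Itpr1 stood first, above Itpr2 and Itpr3 at 3.59 and 3.62 CPM per kb, which overlapped. In both HY/HY groups Itpr1 and Itpr3 overlapped, and Itpr2 was below both at 1.70 and 1.95 CPM per kb.

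**Figure D3:**
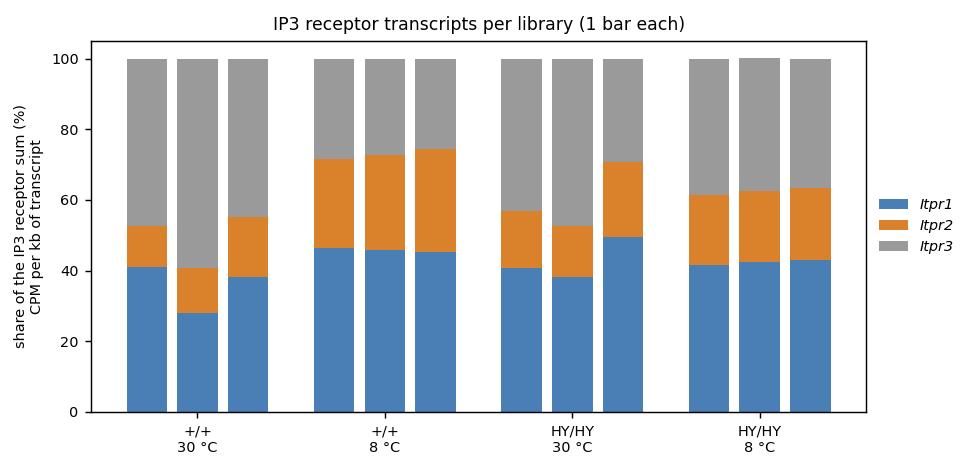
Share of each IP3 receptor gene in the summed level of the 3, in percent of CPM per kb, with 1 bar for each library. In wild-type mice the mean share of Itpr2 was 13.7% at 30°C and 27.1% at 8°C, and that of Itpr3 50.5% and 27.1%. The means at 30°C include the library with muscle transcripts, where the share of Itpr3 was 59.3%. In HY/HY mice the bars at 8°C overlap those at 30°C.

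Atp2a2 (ENSMUSG00000029467.15, chr5:122453513-122502225) encodes SERCA2, whose longer splice form is found in most cell types and whose shorter one is the pump of heart and slow muscle. The gene counts used here do not separate the forms. In wild-type mice its level was 134, 124 and 100 CPM at 30°C and 188, 179 and 205 CPM at 8°C, and in HY/HY mice 107, 135 and 136 CPM at 30°C and 177, 177 and 169 CPM at 8°C. All libraries at 8°C lay above all libraries at 30°C, in both genotypes. Cold raised Atp2a2 1.60-fold in wild-type mice (log2 0.67, SE 0.13, adjusted p = 0.00444). Without wild-type replicate 3 at 30°C the value was 0.57 (adjusted p = 0.0111), under the fold limit, so the call was lost. In HY/HY mice the log2 fold change was 0.47 (95% interval 0.18 to 0.77), with an adjusted p of 0.160, and Atp2a2 was the member with an unadjusted p below 0.05 in that comparison. The cold responses differed by -0.20 (95% interval -0.61 to 0.21, adjusted p = 0.662), so a difference of Atp2a2 between the genotypes was not detected. The genotypes differed by 0.07 at 30°C (95% interval -0.22 to 0.36) and by -0.13 at 8°C (95% interval -0.42 to 0.16). With library totals in place of TMM the median of all genes moved to -0.41 for cold in wild-type mice, and the value of Atp2a2 to 0.33 (adjusted p = 0.0946). Relative to the median of all genes the value was 0.74 under either scaling.

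Atp2a2 was also the main SERCA transcript. In the 11 libraries with few muscle transcripts it made up 64.2% to 84.0% (median 80.3%) of the SERCA sum per kilobase, Atp2a3 15.3% to 34.2%, and Atp2a1 0% to 1.56%. In the library with muscle transcripts Atp2a1 took 69.2% and Atp2a2 25.2%. Atp2a3 (ENSMUSG00000020788.15, chr11:72961169-72993043) encodes SERCA3, a pump of blood, endothelial and secretory cells. It was at 26.5, 22.2 and 43.2 CPM in the wild type at 30°C, and at 33.0, 30.9 and 30.2 CPM at 8°C. The HY/HY libraries held 30.9, 25.4 and 42.4 CPM at 30°C, and 43.2, 32.1 and 34.7 CPM at 8°C. All 4 groups overlapped, and no comparison was called. The value for cold in wild-type mice was 0.04 (95% interval -0.48 to 0.56) and -0.15 without the library with muscle transcripts. B and T cell markers, 10 genes, were summed at 32.7 to 90.5 CPM in the wild type at 30°C and 34.4 to 61.1 CPM at 8°C, and at 82.5 to 365 and 72.8 to 244 CPM in HY/HY mice.

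Atp2a1 (ENSMUSG00000030730.12, chr7:126445858-126463103), the pump of fast skeletal muscle, had counts of 4, 5771 and 28 in the wild type at 30°C and of 1, 16 and 18 at 8°C. HY/HY counts were 5, 5 and 1 at 30°C and 0, 1 and 2 at 8°C. A single library, wild-type replicate 2 at 30°C, therefore held nearly all of the 5852 reads on this gene. Cold in wild-type mice gave a log2 value of -6.40 (SE 1.88, adjusted p = 0.0293), which became 0.00 (SE 0.85, adjusted p = 0.999) without that library. The value for HY/HY against wild-type mice at 30°C was -8.83 (adjusted p = 0.0718), and without it -2.43 (adjusted p = 0.311). At 8°C the HY/HY libraries were all at 3 counts or fewer. Set against a floor of 3 counts per library, the level was at least 3.90-fold lower than in wild-type mice, with overlapping libraries and an adjusted p of 0.663. No fold is given for cold in HY/HY mice, since their mean level at 30°C was 0.139 CPM, below the 0.208 CPM to which that floor came at 8°C. Reads on the opposite strand of Atp2a1 numbered 6 to 19 in each library, a level like that of the sense reads outside the library with muscle transcripts.

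Ryr1 (ENSMUSG00000030592.18, chr7:29003340-29125179), the calcium release channel of skeletal muscle, followed the same library. Counts were 7, 536 and 17 in the wild type at 30°C, and 3, 4 and 15 at 8°C. HY/HY libraries held 20, 19 and 10 reads at 30°C and 9, 8 and 6 at 8°C. Cold in wild-type mice gave -3.75 (SE 1.22, adjusted p = 0.0436), and -0.23 (SE 0.61, adjusted p = 0.827) without that library. The value between the genotypes at 30°C was -3.39 (adjusted p = 0.144) and turned to 0.12 without it. Per 100 reads on the 14 skeletal muscle genes, that library held 12.2 reads of Atp2a1 and 1.13 of Ryr1, while the other 11 held 0 to 3.87 and 0.969 to 3.09. Of the 14 skeletal muscle genes, Ckm, Pvalb and Myoz1 were at 0 in all HY/HY libraries at 8°C, and no gene of the list was at 0 throughout another group. Without that library, cold changed 2 members in the wild type, Atp2a2 and Itpr2, against 8.07% of all genes higher and 3.24% lower.

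**Figure D4:**
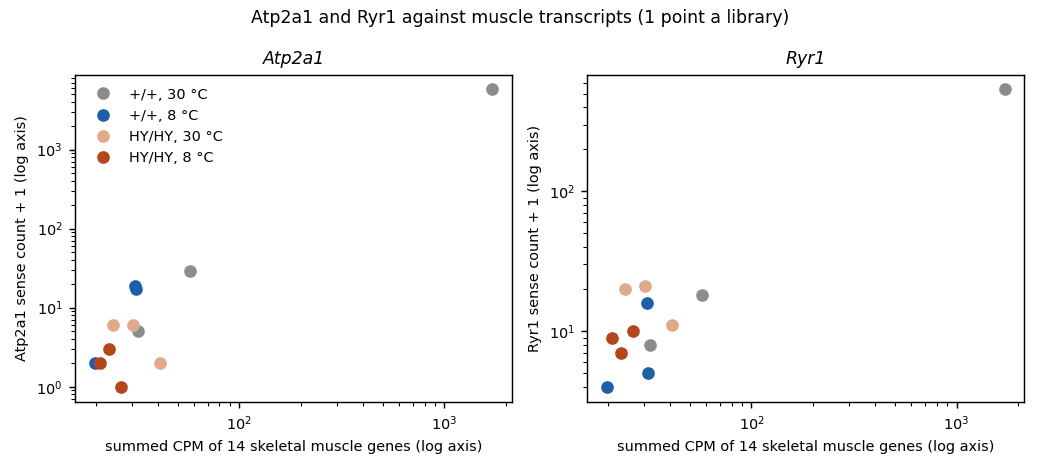
Sense counts of Atp2a1 (left) and Ryr1 (right), plus 1, against the summed CPM of 14 skeletal muscle genes, with 1 point for each of the 12 libraries and log axes. The point at 1714 CPM is wild-type replicate 2 at 30°C, with 5771 and 536 counts. The other 11 libraries lie at 57.2 CPM or lower, with at most 28 and 20 counts.

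Ryr2 (ENSMUSG00000021313.16, chr13:11553099-12106945), the channel of heart muscle and the one named in the beige adipocyte cycle, had 69 reads over all 12 libraries, between 1 and 12 in each. Its level was 0.258 ± 0.0400 CPM (SD, n = 3) in the wild type at 30°C and 0.439 ± 0.287 CPM at 8°C, and 0.332 ± 0.189 and 0.213 ± 0.134 CPM in HY/HY mice. Ryr3 (ENSMUSG00000057378.15, chr2:112631354-113217405) had 64 reads in all, between 1 and 12 in each library, and 36.0% of the pairs at this gene were on its opposite strand. Both overlapped in every comparison, and with no filter on low counts, where all 10 members were tested, neither was called in any of the 5 comparisons. A difference in Ryr2 or Ryr3 was not detectable at this depth. Slow muscle and heart markers, 10 genes, were summed at 1.23 to 6.86 CPM, and Nppa was at 0 throughout. Counting error alone is large at such counts.

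Camk2d (ENSMUSG00000053819.16, chr3:126595487-126846326) was at 36.4, 36.3 and 35.0 CPM in the wild type at 30°C and at 41.5, 39.4 and 40.6 CPM at 8°C, with no overlap. The HY/HY libraries stood at 43.6, 34.7 and 65.2 CPM at 30°C and at 53.8, 48.8 and 59.7 CPM at 8°C. At 8°C every HY/HY library lay above every wild-type library, and at 30°C the genotypes overlapped. The log2 difference between the genotypes was 0.41 at 30°C (95% interval 0.02 to 0.80, adjusted p = 0.247) and 0.42 at 8°C (95% interval 0.02 to 0.81, adjusted p = 0.199). Cold gave 0.17 in wild-type mice (95% interval -0.22 to 0.57) and 0.18 in HY/HY mice (95% interval -0.21 to 0.57). The 8 macrophage markers were summed at 254 to 271 and 206 to 214 CPM in the wild type at 30°C and 8°C, and at 280 to 494 and 309 to 439 CPM in HY/HY mice. Of these, Csf1r, Mrc1 and C1qc were called higher in HY/HY mice at 8°C, and their part in the Camk2d values was not tested. Over the whole set, 3 members lay higher without overlap by cold in wild-type mice (Atp2a2, Itpr2 and Camk2d) and 1 lower (Itpr3), where 21.4% and 22.9% of 15000 genes did so. At 8°C 3 members lay lower without overlap in HY/HY mice (Atp2a2, Itpr1 and Itpr2) and 1 higher (Camk2d), where 19.6% and 17.2% of genes did so.

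Other genes of calcium handling were counted in 6 lists of 128 gene symbols in all, and 107 genes were tested. Some of the symbols are older and newer names of the same gene. By cold in wild-type mice 11 rose and 7 fell, or 16.8% of those tested, where 10.3% of all genes rose and 6.93% fell, so the share was near that of all genes. Without the library with muscle transcripts 13 rose and 1 fell, against 8.07% and 3.24% of all genes. In HY/HY mice 1 rose and 0 fell in edgeR, against 0.181% and 0.0665% of all genes. At an unadjusted p below 0.05, 10 of the 107 were higher and 8 lower. DESeq2 called 1 higher and 1 lower, against 211 and 91 of all 16540 genes. At 30°C 0 were called between the genotypes in edgeR, 25 had an unadjusted p below 0.05, and DESeq2 called 3 higher and 1 lower. Of all 16540 genes DESeq2 called 367 higher and 316 lower there. The share of all genes at an unadjusted p below 0.05 is not given, so those counts have no background here. At 8°C 1 was higher and 7 were lower in HY/HY mice, or 7.48%, against 1.51% and 4.42% of all genes. The median log2 fold change over the 107 genes was 0.05 by cold in wild-type mice and 0.01 in HY/HY mice, against -0.07 and -0.01 over all genes.

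Of the 28 gene symbols of IP3 formation and receptor partners, which include such older and newer names, 24 were tested. Ahcyl1 was called beside Itpr2 in the same 3 comparisons. Ahcyl1 encodes IRBIT, a protein that binds the IP3 site of the receptors and is released by IP3. Its level was 133 ± 6.21 CPM (SD, n = 3) in the wild type at 30°C and 303 ± 6.85 CPM at 8°C, and 135 ± 18.6 and 161 ± 7.60 CPM in HY/HY mice. Ahcyl1 rose 2.28-fold with cold in wild-type mice (log2 1.19, SE 0.12, adjusted p = 5.2e-05) and was lower at 8°C in HY/HY mice (-0.91, SE 0.11, adjusted p = 0.00165). Its cold responses differed by -0.93 (SE 0.16, adjusted p = 0.0154), or with adjusted p = 0.0521 without the library with muscle transcripts. Its relative Ahcyl2, whose product also binds the receptors, was at 45.9 ± 6.07 CPM in wild-type and 84.8 ± 13.7 CPM in HY/HY mice at 8°C (log2 0.88, SE 0.20, adjusted p = 0.0208). At 30°C Ahcyl2 was at 56.6 ± 7.86 CPM in wild-type and 77.9 ± 22.5 CPM in HY/HY mice, also higher but not called. The Ahcyl2 call was lost without wild-type replicate 1 or 2 or HY/HY replicate 1 or 3 at 8°C, with adjusted p up to 0.0955. Tespa1, a protein of T cells that binds IP3 receptors, had a level of 0.532 ± 0.0952 CPM in the wild type at 30°C, and at 8°C no wild-type library held more than 3 reads. It was at least 2.49-fold lower at 8°C than at 30°C against that floor (adjusted p = 0.00319). Of the 10 B and T cell markers, Cd2 was called lower with it (0.328-fold, adjusted p = 0.0424), and Cd2 and Cd3d without the library with muscle transcripts. Their part in the Tespa1 value was not tested. The list's median was 0.03 by cold in wild-type mice, unchanged to 2 decimals with Tespa1 at its bound, and 0.08 between the genotypes at 8°C.

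The list of mitochondrial calcium uptake held 17 genes, all tested, and 8 of them rose with cold in wild-type mice, also without the library with muscle transcripts. Of all genes 10.3% rose, and 8.07% without that library. They were Mcu, Mcur1, Smdt1, Letm1, Letmd1, Vdac2, Vdac3 and Hspa9, and the median of the 17 was 0.50. Mcu encodes the pore of the mitochondrial calcium uniporter. It was at 10.5 ± 0.981 CPM (SD, n = 3) in the wild type at 30°C, 16.8 ± 1.15 CPM at 8°C, and 11.7 ± 0.944 and 10.2 ± 1.01 CPM in HY/HY mice. Smdt1, its subunit EMRE, was at 94.4 ± 17.8 and 189 ± 15.1 CPM in wild-type mice and at 111 ± 14.2 and 117 ± 1.73 CPM in HY/HY mice. Letm1, an exchanger of the inner membrane, rose from 70.3 ± 7.92 to 445 ± 15.2 CPM in wild-type mice, and was the 1 gene of the 6 lists called by cold in HY/HY mice, from 95.5 ± 22.7 to 197 ± 10.2 CPM (log2 1.05, SE 0.16, adjusted p = 0.0246). The call of Letm1 in HY/HY mice was lost without HY/HY replicate 1 or 2 at 30°C or any 1 of the 6 libraries at 8°C (adjusted p up to 0.107) and with only the libraries compared (adjusted p = 0.202). Letmd1 stood at 45.4 ± 10.8 and 324 ± 33.1 CPM in wild-type mice and at 52.0 ± 10.9 and 80.6 ± 9.63 CPM in HY/HY mice. Hspa9, the mitochondrial chaperone that links VDAC to IP3 receptors at contact sites, stood at 452 ± 41.5 and 1243 ± 76.6 CPM, and at 571 ± 111 and 758 ± 55.8 CPM. At 8°C 5 of the 17 were lower in HY/HY mice (Mcu, Smdt1, Letm1, Letmd1 and Hspa9), against 4.42% of all genes. The same 5 genes were called for the interaction, against 2.07% of all genes lower. Of these, Letm1 and Letmd1 were called without the library with muscle transcripts, against 0.696% of all genes lower. Micu2, a regulator of the uniporter, was not called, with a log2 value of 0.14 by cold in wild-type mice. Beige adipocyte markers, 8 genes, were summed at 80.2 to 207 and 8458 to 9370 CPM in wild-type mice and at 69.2 to 259 and 551 to 1711 CPM in HY/HY mice, none at 0 throughout a group. Their part in the values of Itpr2, Ahcyl1 and the mitochondrial genes was not tested.

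**Figure D5:**
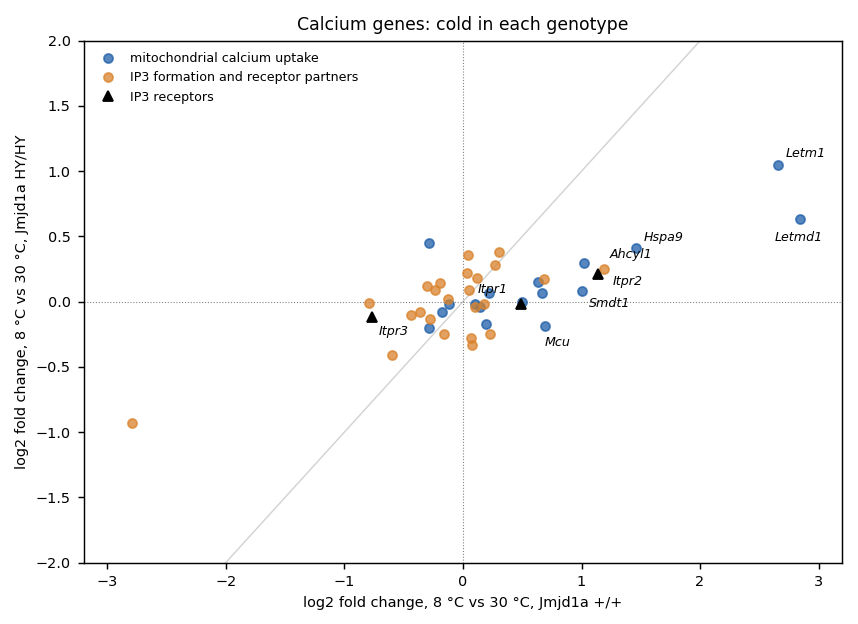
Log2 fold change by cold in wild-type mice (horizontal axis) and in HY/HY mice (vertical axis) for the tested genes of mitochondrial calcium uptake (17), of IP3 formation and receptor partners (24), and the 3 IP3 receptors. The line marks equal values, and list genes called for the interaction are named. The leftmost point is Tespa1, whose fitted value is not a bound. Itpr2 (1.14 and 0.21) and Ahcyl1 (1.19 and 0.25) lie beside each other below the line.

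Among 8 tested SERCA regulators, S100a1, whose product binds SERCA and ryanodine receptors, rose with cold in wild-type mice from 173 ± 37.9 to 346 ± 34.6 CPM (log2 1.00, SE 0.22, adjusted p = 0.00691). It was at 156 ± 52.2 and 186 ± 9.77 CPM in HY/HY mice, lower than in the wild type at 8°C (-0.89, SE 0.22, adjusted p = 0.0294). The S100a1 call at 8°C was lost without any 1 of the 6 libraries at that temperature, with adjusted p up to 0.113. Of 19 tested partners of the ryanodine receptor and of the junction between surface and store, Casq1, Hrc, Cacnb1 and Cacnb3 fell with cold in wild-type mice. Casq1 and Hrc, calcium-binding proteins of the muscle store, gave -4.53 and -3.39, and 0.13 and -0.74 without the library with muscle transcripts. Cacnb1 and Cacnb3 were not called without it either, where Jph1 and Cacna2d1, named after their values were seen, were called higher. For Casq2, calsequestrin of heart and slow muscle, the interaction was -1.74 (SE 0.36, adjusted p = 0.0327, and 0.0599 without that library), at 1.82 ± 0.279 and 2.57 ± 0.730 CPM in wild-type mice and 3.52 ± 0.692 and 1.47 ± 0.0647 CPM in HY/HY mice. Of 15 tested CaM kinases and phosphatases, Camk2n1, an inhibitor of CaMKII, fell with cold in wild-type mice from 46.6 ± 16.4 to 26.5 ± 2.63 CPM (adjusted p = 0.0389, and 0.155 without that library). Of 24 tested genes of store-operated and surface transport, Atp2c2, a calcium pump of the Golgi that is expressed in mammary epithelium, fell from 26.3 ± 13.2 to 11.6 ± 1.79 CPM (adjusted p = 0.0490, and 0.0776 without that library).

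The genes most like each member were found by the Pearson correlation of log2 CPM over the 11 libraries with few muscle transcripts, among 15000 genes. These are descriptions, since the libraries share groups and depth. For Itpr2 they were Tysnd1, Ndufa5 and Uqcrh (r = 0.99 each), a peroxisomal protease and subunits of respiratory complexes I and III. Atp2a2 lay nearest to Mob1b (0.98), Pptc7 and Slain2 (0.97). Itpr3 lay nearest to Nck2, Fam129b and Ptprf (0.98), the last ranging from 33.1 to 170 CPM. The nearest genes to Itpr1 were Stil (0.93), Tacr2 and Fam160b2 (0.91), to Camk2d Gusb (0.95), Raver2 and Hfe (0.94), and to Atp2a3 Cd81 (0.90), Mxd4 (0.88) and Hsdl1 (0.86). Over all 12 libraries the nearest genes to Atp2a1 were the muscle genes Ckm, Mybpc2 (0.99) and Tnnt3 (0.96), and to Ryr1 Tnnt3 (0.93), Casq1 and Mylpf (0.92). Over the 11 libraries those of Ryr1 were Cwf19l1 (0.87), Pop4 (0.86) and Bend6 (0.85), and those of Atp2a1 were 1810021B22Rik (0.94), Ckm and Mybpc2 (0.93).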

How the data were processed

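RNA from the scWAT of 12 mice was sequenced as pairs of 50-base reads. The authors used fastp for trimming and STAR for alignment to mm10, and for each library they deposited raw counts of read pairs over 55401 genes. The columns hold both strands together and each strand, and the sense column was used. Rows that name no gene held 55.8% to 63.5% of the pairs and were left out. Of the GENCODE M25 gene IDs, 32589 matched a symbol, and 2645 of these, which shared a symbol with another ID, were then set aside. FastQC and StringTie are also named in the submitters' processing notes. Multiply aligned pairs entered no count, so closely similar genes can be undercounted.

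The test was that of edgeR 4.0.16 in R 4.3.3. filterByExpr kept 16540 genes. TMM factors were 0.859 to 1.17. A quasi-likelihood model with 1 mean for each of the 4 groups was fitted to all 12 libraries (8 residual degrees of freedom), with two-sided p-values and Benjamini-Hochberg adjustment across the genes kept. The fit was tested on simulated data. Exact permutation tests of 3 against 3 are two-sided and cannot go below p = 0.1. No pair of libraries held identical counts. The labels number the libraries but do not tie them to litters, so p-values measure the spread between these libraries.

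The members and lists were chosen with earlier results of these data known. Named genes were all members, at most 3 called genes per list and comparison ranked by fold change, the 3 most correlated genes for each member, markers that moved with a member, Kdm3a and Ucp1. Other called list genes are named where a count is broken down. Some genes of the lists are not reported by name here. Locations, starts and upstream sequences are from RefSeq (GRCm38.p6, 7 of 10 members in the sequence table). Lengths per kilobase are from GENCODE M1 and were chosen after seeing the data, as was the recount of lists without the library with muscle transcripts. The length for Camk2d held almost no untranslated sequence, so its level per kilobase is not given.

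Same-numbered libraries were checked for pairing by the correlation of their deviations from the group means. It was 0.13, 0.21 and 0.32 for cold in Jmjd1a HY/HY mice, above 0.1 for each number, and -0.06 to 0.37 in the other comparisons, where at least 1 number lay below it. With the replicate number as a block, the count of members called by cold in Jmjd1a HY/HY mice was again 0. Alternatives were DESeq2 1.42.0, relative log expression factors, library totals, library sizes without mitochondrial genes, other filters, other sets of libraries, the block, both strands, no fold limit, and each library left out.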

Additional observations from a re-analysis of the deposited data

Results flagged for a closer look

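By the interaction test in edgeR, 8 genes of calcium handling were called for a difference in cold response between the genotypes. They were 1 of the 8 members tested and 7 of the 107 list genes tested. Of all 16540 genes, 2.07% were called lower and 0.169% higher. Without the library with muscle transcripts only Letm1 and Letmd1 of these 8 were still called, against 0.696% of all genes lower. With the wild-type response subtracted from that of Jmjd1a HY/HY mice, the difference for Itpr2 was -0.93 on the log2 scale, and for its receptor partner Ahcyl1 it was -0.93. In the list of mitochondrial calcium uptake the difference was -0.88 for Mcu, -0.92 for Smdt1, -1.61 for Letm1, -2.21 for Letmd1 and -1.05 for Hspa9. The value for Casq2 was -1.74, at levels of 1.42 to 4.31 CPM. All 8 differences were negative, as were 342 of the 370 genes called for the interaction in all.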

How the results depend on the processing

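By cold in wild-type mice 5 members were called, against 3 with at least 10 counts in every library or with only the libraries compared, and 2 to 5 with 1 library left out. The count was 2 without wild-type replicate 2 at 30°C or any wild-type replicate at 8°C, where Atp2a1, Ryr1 and Itpr3 were lost. At 30°C the count between the genotypes was 0, but 2 with no filter (Atp2a1 and Ryr1) and 2 with the replicate block (Atp2a1, and Itpr3 at -0.64, adjusted p = 0.0243). At 8°C it was 1, and 2 in DESeq2, with relative log expression factors and with no fold limit, which add Itpr1. The interaction count was 1, but 0 with library totals (Itpr2 at -0.71, adjusted p = 0.0814, with the median of all genes at 0.25) and 0 to 1 with 1 library left out. For cold in Jmjd1a HY/HY mice the count was 0 under each alternative run. Itpr2 kept its calls for cold in wild-type mice and for the genotypes at 8°C under all 22 alternatives.

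The replicate block changed no other count of members by over 1.5 times, and for cold in Jmjd1a HY/HY mice, where the numbers may pair the libraries, 128 genes were higher and 32 lower under it, against 30 and 11 without it. Ryr1 lost its call by cold in wild-type mice under the block (-2.83, adjusted p = 0.114). Libraries deviated most like their own number in 21 of 36 cases. DESeq2 called more genes, 211 higher and 91 lower by cold in Jmjd1a HY/HY mice, 367 and 316 between the genotypes at 30°C, and 95 and 712 for the interaction, against 93 and 73 and 28 and 342 in edgeR for the last pair.

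Of 845 recomputed member values, 765 kept their direction and side of the threshold, 29 lost a call with the same sign, 9 gained one and 42 changed sign. The 42 include Atp2a1 for cold in wild-type mice without the library with muscle transcripts, which lost its call as well. With library totals the sign changed for cold in wild-type mice in Atp2a3 (-0.28) and Camk2d (-0.17), at 30°C in Atp2a2 (-0.01) and Itpr2 (-0.02), at 8°C in Atp2a2 (0.01) and for the interaction in Atp2a2 (0.02). In DESeq2 Itpr3 at 8°C was -0.00 and the Camk2d interaction -0.02, which was -0.02 with relative log expression factors and -0.01 with no filter. Ryr1 at 8°C was -0.04 with the block and -0.02 with both strands. With 1 library left out, values crossed 0 for cold in wild-type mice in Atp2a1 (-6.98 to 0.00), Casq1 (-5.10 to 0.13) and Atp2a3 (-0.15 to 0.37), and for cold in Jmjd1a HY/HY mice in Camk2d (-0.01 to 0.47), Itpr1 (-0.08 to 0.07) and Itpr3 (-0.35 to 0.08). Between the genotypes they crossed 0 at 30°C in Atp2a2 (-0.04 to 0.18), Atp2a3 (-0.11 to 0.43), Itpr1 (-0.18 to 0.16), Itpr2 (-0.03 to 0.12) and Ryr1 (-3.95 to 0.12), and at 8°C in Itpr3 (-0.08 to 0.14) and Ryr1 (-0.30 to 0.99). For the interaction they did so in Atp2a1 (-1.01 to 5.95), Atp2a3 (-0.21 to 0.34), Camk2d (-0.18 to 0.29) and Ryr1 (-0.08 to 4.37). The cause was not tested. Leaving out the library with muscle transcripts gave the changes of Atp2a1 (0.00) and Casq1 (0.13) for cold in wild-type mice and of Ryr1 at 30°C (0.12). It also gave those of Atp2a1 (-1.01) and Ryr1 (-0.08) for the interaction. Atp2a3 for cold in wild-type mice (-0.15) and at 30°C (-0.08) and the Camk2d interaction (-0.00) changed sign in that fit and in others. With 1 library left out, list genes lost the call by cold in wild-type mice in 10 fits for Atp2c2 (adjusted p up to 0.206), 8 for Camk2n1 (0.155), 7 for Hrc (0.443), 5 for Casq1 (0.893) and 3 for Cacnb1 (0.0878). The interaction call was lost in 10 fits for Hspa9 (0.118), 9 for Casq2 (0.0958) and 5 for Ahcyl1 (0.0632). Depth limits Ryr2, Ryr3, Ryr1 and Atp2a1.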
